A study of Mus musculus with 20 samples.

Results

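The receptors and transcription factors with which CD4 T cells read IL-6, IL-21, IL-27 and IL-4 were followed through 9 genes, which are Il6ra, Il6st, Il21r, Il27ra, Il4ra, Stat3, Stat4, Stat6 and Socs3. Their probes were taken by the gene name printed in the array annotation, with no use of measured values, which gave 9 of the 24325 genes with a symbol and 13 of the 39429 probes on the array. All 13 probes were detected, meaning well above the scanner's background, on all 20 arrays. Il4ra and Stat3 had 2 probes each and Stat6 had 3. Values below are from the probe of a gene with the highest mean unless another is named. One array was hybridised per sorted CD4+ B220- cell sample. Every sample came from mice of strain B6.Cg-Foxp3<tm1Mal>, in which GFP reports Foxp3, of mixed gender, 8 to 14 weeks old and pooled 8 to 15 at a time. In peripheral lymph nodes (pLN) taken 12 days (d12) or 25 days (d25) after subcutaneous KLH in alum, the groups were naïve T cells (GFP-PD1-GL7-), T follicular helper or TFH cells (GFP-PD1hiGL7+), regulatory T or Treg cells (GFP+PD1-GL7-) and T follicular regulatory or TFR cells (GFP+PD1hi, GL7+ and GL7- together). In Peyer's patches (PP), whose labels name no immunisation, the TFH cells were split into GL7+ and GL7- fractions and arrayed beside Treg and TFR cells. Each pLN d12 and PP group had 2 arrays from independent sorts and each pLN d25 group had 1. Naïve cells were those of immunised mice, so no group comes from unimmunised lymph nodes, and no naïve group was arrayed from PP.

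IL-6 binds its own receptor chain, Il6ra, and then the shared chain gp130, encoded by Il6st, and the Janus kinases attached to gp130 activate STAT3. IL-27 uses Il27ra with the same gp130, IL-21 uses Il21r with the common gamma chain Il2rg, and IL-4 uses Il4ra with Il2rg or with Il13ra1 to activate STAT6. STAT4 is best known downstream of IL-12, and Socs3 is a feedback inhibitor that binds gp130 and its kinases and is itself switched on by STAT3. In germinal centres IL-6 and IL-21 are known to favour the TFH fate, while IL-4 and IL-21 are the products of TFH cells that act on B cells.

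Il4ra and Socs3 held 5 and 3 of the 13 called differences of the set, so the stretches before their start sites are shown. They come from RefSeq on GRCm38.p6, where 8 of the 9 genes had an entry, with a pair of entries for Stat4, and none was found for Il27ra. Windows from 250 bases before to 50 bases after the start were searched for TTCNNNGAA and TTCNNNNGAA, letters bound by STAT proteins that read the same on both strands. TTCNNNGAA stood in 8.3% and TTCNNNNGAA in 6.95% of the 32851 promoter windows of the same length. Among the 9 windows of the set, TTCNNNGAA was found once, in that of Socs3 at 154 bases before the start, and TTCNNNNGAA was not found. A match of letters is a description and was not tied to any measured level. Capitals mark the match, and the part before the start is given 5′ to 3′, for Socs3 from the minus strand at chr11:117969367-117969616 and for Il4ra from the plus strand at chr7:125552021-125552270.
Socs3: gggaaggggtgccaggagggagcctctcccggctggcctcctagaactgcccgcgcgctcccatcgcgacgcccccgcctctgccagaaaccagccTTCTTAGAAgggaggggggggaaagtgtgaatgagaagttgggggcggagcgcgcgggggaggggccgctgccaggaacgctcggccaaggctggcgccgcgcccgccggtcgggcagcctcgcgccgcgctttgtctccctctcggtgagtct
Il4ra: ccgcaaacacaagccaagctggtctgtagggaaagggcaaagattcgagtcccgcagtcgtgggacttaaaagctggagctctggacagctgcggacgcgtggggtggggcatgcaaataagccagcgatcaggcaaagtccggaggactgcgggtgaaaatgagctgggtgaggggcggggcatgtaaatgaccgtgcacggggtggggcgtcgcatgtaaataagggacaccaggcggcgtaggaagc

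Markers of the sorted populations separated them in part. Foxp3 lay at 14718 to 35129 normalised intensity units on the 5 Treg arrays and at 13409 to 29926 on the 5 TFR arrays, against 27.0 to 94.8 on the 7 TFH arrays, where it was detected on 3, and 123 to 192 on the 3 naïve arrays, where it was detected on all. Ikzf2, also on the Treg list, did not separate Treg (5201.7 to 9724) from TFH cells (5878.4 to 8544). Bcl6, the transcription factor of follicular T cells, lay at 41178 to 72183 in TFH and at 8793.5 to 53774 in TFR cells, above all naïve and Treg arrays (3430.5 to 7033.7), whereas Cxcr5 in TFR cells (12125 to 88179) and Icos in TFH cells (60759 to 172610) overlapped the Treg arrays (up to 15156 and 62176). Cd3e and Cd4 were detected on every array. The arrays lay on 5 slides of 4, with the replicates 1 of pLN d12 on slide 1, the replicates 2 on slide 2, pLN d25 on slide 3 and the PP replicates on slides 4 and 5. In every comparison of PP with pLN cells below, the effects of tissue and slide therefore cannot be told apart. Slide 4 stood apart in the summed level of 12 B-cell genes, at 175870 in TFR, 117740 in Treg, 44294 in GL7+ TFH and 25273 in GL7- TFH cells. This level was 6607 to 15119 on slide 5 and 4654 to 26107 on the 12 pLN arrays. The 8 epithelial genes examined summed to 12987 to 37288 on slide 4 and to 1279 to 2310 on slide 5. All cells were sorted as B220-. Of the 12 B-cell genes, 5 to 11 were above background per array on slides 1 to 3, 11 to 12 on slide 4 and 10 to 11 on slide 5. B cells also use Il4ra and Il21r. Results on PP cells are therefore given for each slide. Comparisons of cell types within slide 4 still carry its unequal B-cell transcripts, whose part in them was not tested. Levels are intensities on an arbitrary linear scale that holds only within a probe. In sorted samples, fewer cells of a type and less RNA per cell cannot be told apart.

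**Figure D1:**
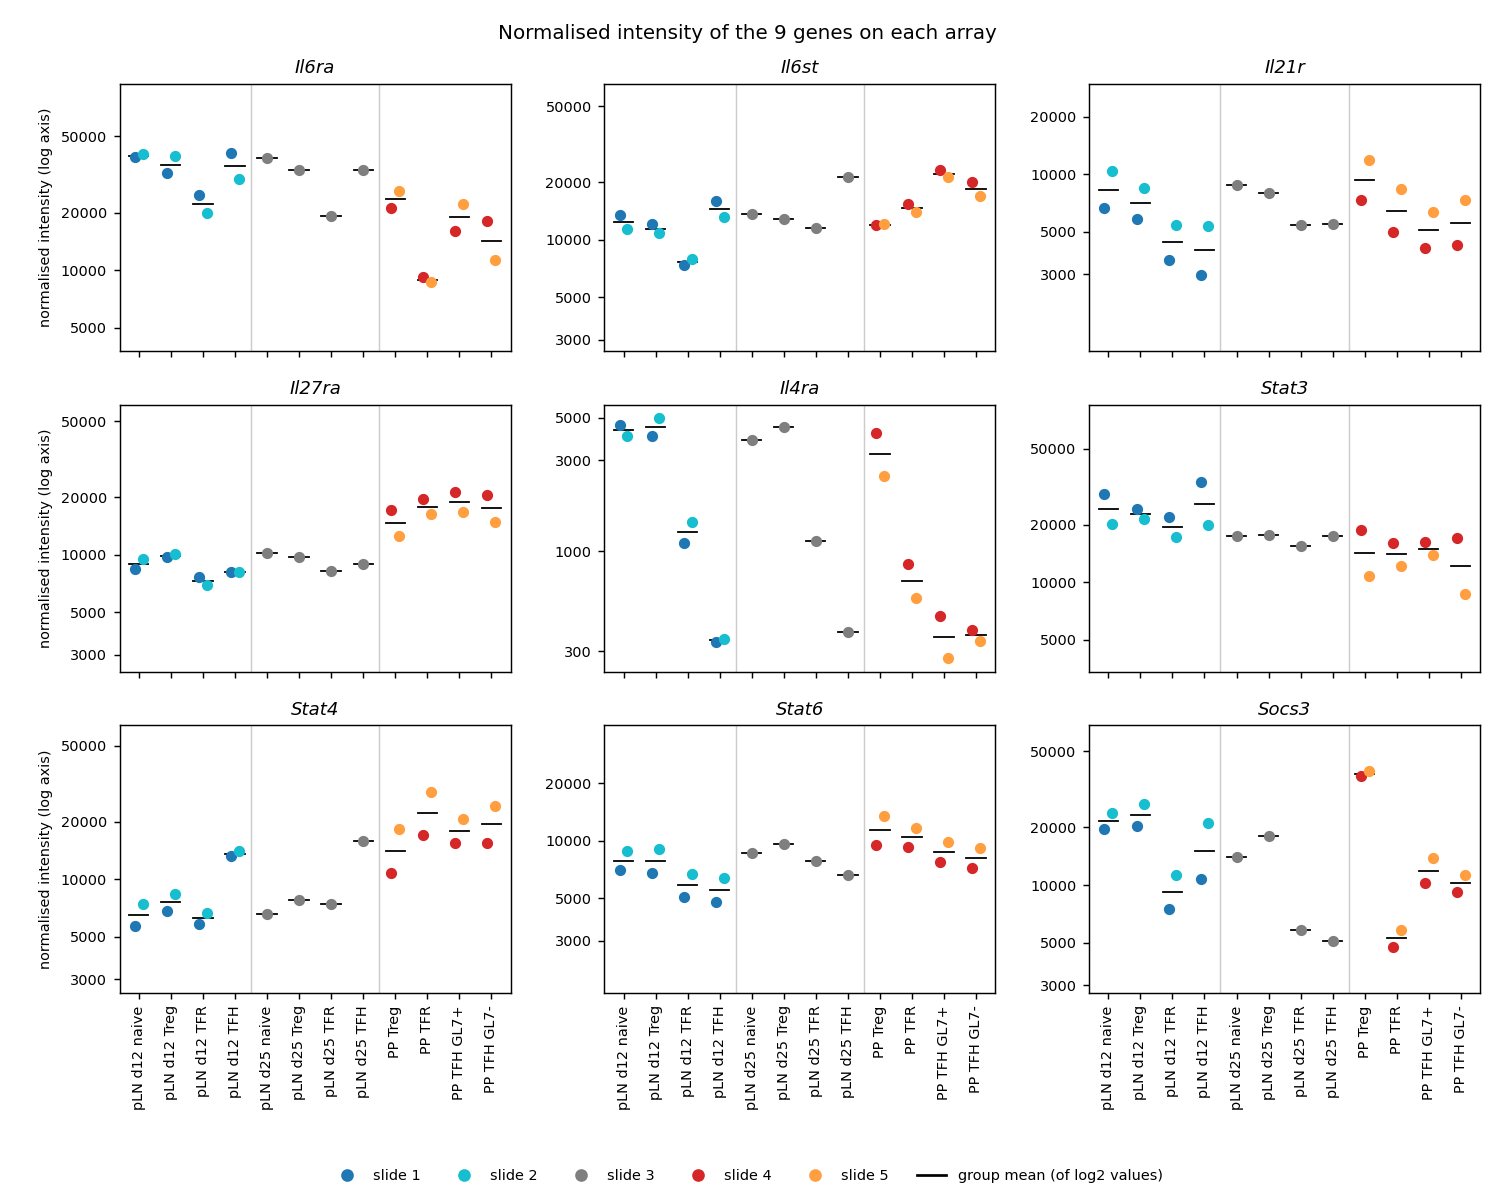
Normalised intensity (log axis, each panel spanning the same number of fold) of the 9 genes on the 20 arrays, by group, with points coloured by slide and black lines at the group means of log2 values. Il4ra falls into 3 tiers, with naïve and Treg arrays at 2471 to 4961, TFR arrays at 572 to 1427 and TFH arrays at 276 to 459.6, and Socs3 is highest on the PP Treg arrays, at 37093 and 39354.

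Across the 12 groups, limma's F test called 5 of the 9 genes, Il4ra (adjusted p 3.07e-05), Socs3 (0.00147), Il6st (0.00216), Il6ra (0.0024) and Il27ra (0.00392), where 17.3% of all 22264 tested probes were called. The count was lower without slide 4, which leaves 1 array per PP group, and in most fits without a single array. The share of all tested probes called in those fits is not given, so the lower counts have no background. The limits for the F test were p 0.001 with adjusted p 0.005, and those for a comparison of 2 groups were adjusted p 0.05 with a log2 difference of at least 1. Stat4 missed the first limit at an adjusted p of 0.00905, and Il21r, Stat6 and Stat3 had 0.495, 0.199 and 0.455. The distance from the lowest to the highest group mean was 3.71 for Il4ra on the log2 scale, more than in 92.4% of tested probes, and 2.91 for Socs3, more than in 87.6%. It was 1.03 for Stat6 and 1.08 for Stat3, more than in 40.8% and 43.5%. Between these lay Il6ra (2.15), Stat4 (1.83), Il6st (1.53), Il27ra (1.37) and Il21r (1.22).

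Il4ra, the chain that binds IL-4 (probe on chromosome 7, 132722922 to 132722981, mm9), gave the steepest steps between cell types. In pLN d12, naïve T cells had 4599.6 and 3992, Treg cells 3997 and 4961, TFR cells 1102 and 1427 and TFH cells 334 and 349 intensity units. On the d25 arrays naïve, Treg, TFR and TFH cells had 3818, 4483, 1134.5 and 379. In PP, the values on slides 4 and 5 were 4179 and 2471 in Treg, 861.5 and 572 in TFR, 459.55 and 276 in GL7+ TFH and 388 and 340.5 in GL7- TFH cells. On this probe all TFR arrays lay below all naïve and Treg arrays and above all TFH arrays of either tissue. The second Il4ra probe did not keep the groups apart, since PP TFR replicate 2, at 203, lay below 5 of the 7 TFH arrays (168.86 to 329) and PP Treg replicate 2, at 892, below pLN d12 TFR replicate 1, at 1127. Among naïve and Treg groups, neighbours in the order of means overlapped, except that the single naïve array at d25 lay below both at d12, and neighbours among the 4 TFH groups overlapped.

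TFH cells of pLN d12 were 12.5-fold below naïve T cells in Il4ra, a log2 difference of -3.65 (SE 0.32, adjusted p 3.45e-05, limma). It was -3.78 on slide 1 and -3.51 on slide 2, and on the d25 arrays it was -3.33. This was the only 1 of the 9 genes called in that comparison, where 14.7% of all tested probes were called, a share no lower than that of the set. The Il4ra call was kept under all 13 alternatives. TFR cells of pLN d12 stood 3.55-fold below Treg cells (-1.83, SE 0.32, adjusted p 0.005; -1.86 and -1.80 on the 2 slides) and 3.67-fold above TFH cells (1.88, SE 0.32, adjusted p 0.00649; 1.72 and 2.03). Either call was lost in a fit of the compared groups alone and without 1 of 2 single arrays, which were TFR replicate 1 or Treg replicate 2 for the first (highest adjusted p 0.056) and TFH replicate 1 or TFR replicate 2 for the second (0.0916). The second Il4ra probe (chromosome 7, 132712550 to 132712609) followed the first with r = 0.988 over the 12 group means. It too was called between TFH and naïve T cells (-3.30, SE 0.68, adjusted p 0.00619), whereas its differences of -1.68 and 1.69 for TFR against Treg and TFH cells had adjusted p of 0.164 and 0.244.

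In PP the same chain was 9.02-fold lower in GL7+ TFH than in Treg cells (-3.17, SE 0.32, adjusted p 0.000122) and 4.58-fold lower in TFR than in Treg cells (-2.19, SE 0.32, adjusted p 0.00152). The first difference was -3.18 on slide 4 and -3.16 on slide 5, and the second -2.28 and -2.11. In fits of the compared groups alone neither was called (adjusted p 0.0554 and 0.129). Il4ra itself was higher on slide 4 in all 4 PP groups, by 0.19 to 0.76 on the log2 scale, and the part of the B-cell transcripts in this was not tested. TFR cells exceeded GL7+ TFH cells by 0.98 (SE 0.32, adjusted p 0.18), which was not called. Between PP and pLN d12, Il4ra differed by -0.47 in Treg, 0.06 in TFH and -0.84 in TFR cells (adjusted p 0.598, 0.959 and 0.109), and the last became -1.13 (adjusted p 0.0436) without slide 4. The other probe was called in PP between TFH and Treg cells (-2.66, adjusted p 0.0277) and not between TFR and Treg cells (-1.93, adjusted p 0.107).

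The partner chains of Il4ra took other courses. Il2rg, the common gamma chain, was measured at 45440 to 52056 in naïve and Treg cells of pLN d12 and at 30739 to 36452 in TFR and TFH cells, and at 58286 to 69485 on the PP arrays. Its one called difference was the higher level in PP than in pLN d12 TFR cells (1.00, SE 0.16, adjusted p 0.00324). Il13ra1, which pairs with Il4ra in the alternative receptor, was below background on all naïve and Treg arrays and on both pLN d12 TFR arrays. It was detected at 621 and 463 in PP TFR cells, at 149 and 86 in PP GL7+ TFH cells and at 195 and 87 in pLN d12 TFH cells. PP TFR cells were at least 15.8-fold above PP Treg cells (adjusted p 0.000179), 4.74-fold above GL7+ TFH cells (adjusted p 0.0269) and at least 9.77-fold above pLN d12 TFR cells (adjusted p 0.000987). The call against GL7+ TFH cells was lost under 7 of 13 alternatives, among them without slide 4 (2.43, adjusted p 0.304) and without any 1 of the 4 arrays compared (1.85 to 2.64). On the d25 TFR array of pLN, Il13ra1 was detected at 113 units.

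**Figure D2:**
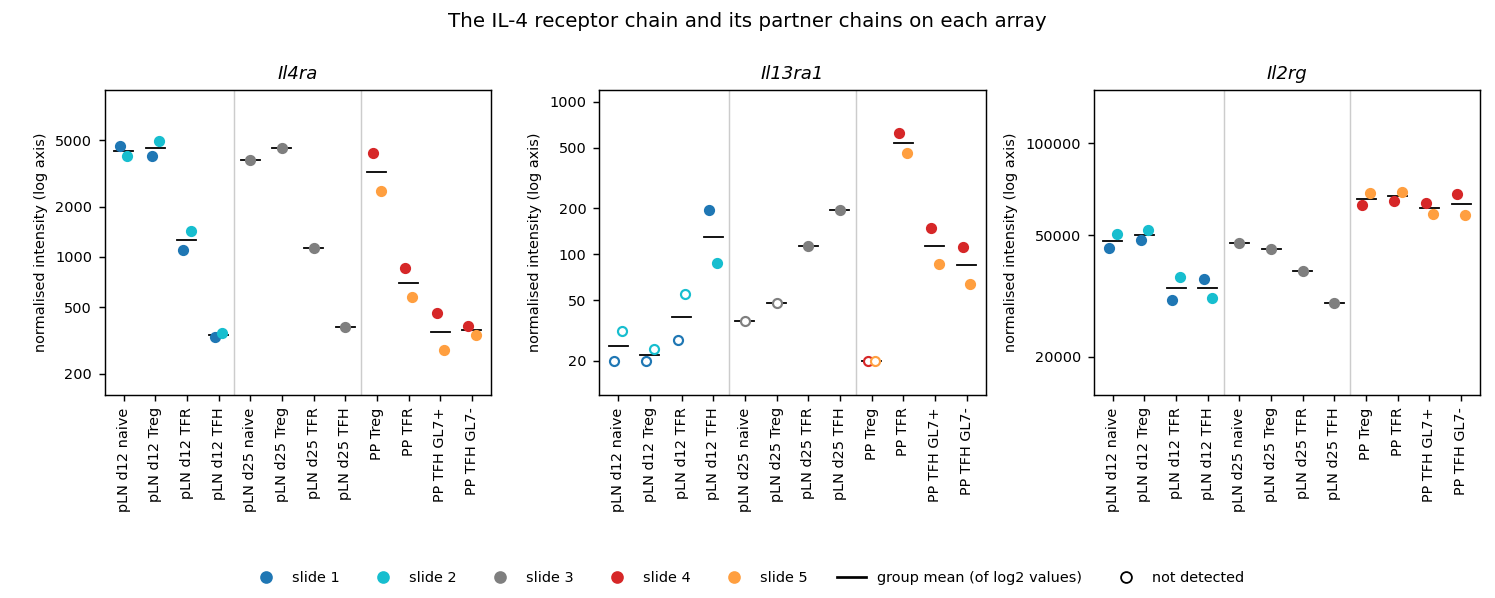
Normalised intensity (log axes with their own ranges) of Il4ra and of the chains it pairs with, Il13ra1 and Il2rg, on each array, with open points for arrays on which the probe was not detected. Il13ra1 reaches 621 and 463 in PP TFR cells, where Il4ra is at 861.5 and 572, and is not detected in naïve and Treg cells.

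Il6ra, the IL-6 binding chain (chromosome 3, 89674054 to 89674113), was lowest in TFR cells of PP. Naïve T cells of pLN d12 had 38860 and 40551, Treg cells 32360 and 39312, TFH cells 41107 and 30053 and TFR cells 24809 and 19924 units. The d25 arrays gave 38766 in naïve, 33280 in Treg, 33253 in TFH and 19138 in TFR cells. In PP, Treg cells had 21186 and 25984, GL7+ TFH cells 15999 and 22293, GL7- TFH cells 17962 and 11269 and TFR cells 9180.4 and 8661. In both tissues and on both days TFR arrays lay below every Treg array of the same tissue and day, and both PP TFR arrays lay below all 18 others.

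PP TFR cells were called lower than PP Treg cells in Il6ra (2.63-fold, log2 -1.40, SE 0.27, adjusted p 0.00723; -1.21 on slide 4 and -1.58 on slide 5) and lower than pLN d12 TFR cells (2.49-fold, -1.32, SE 0.27, adjusted p 0.00928). The first call was lost with the compared groups alone, without slide 4 (adjusted p 0.0537) and without PP Treg replicate 2. The second was lost with slide as a random block (adjusted p 0.099), with the compared groups alone, without pLN d12 TFR replicate 1 and without PP TFR replicate 2. The difference of TFR from GL7+ TFH cells in PP was -1.08 (SE 0.27, adjusted p 0.058; -0.80 and -1.36) and was called with slide as a fixed block (adjusted p 0.0334), as a random block, by scaling to the 75th percentile alone and after another background correction. In pLN d12 TFR cells the differences from Treg and TFH cells were -0.68 and -0.66 (adjusted p 0.151 and 0.25). Tests of whether the TFR difference itself changed between tissues gave -0.71 against Treg and -0.42 against TFH cells (adjusted p 0.754 and 1), and neither passed.

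Il6st, the gp130 chain that IL-6 and IL-27 receptors share (chromosome 13, 113296586 to 113296645), showed small differences with close replicates. TFH cells had 15860 and 13200 in pLN d12, 21427 at d25, 23159 and 21289 in GL7+ and 20117 and 16929 in GL7- cells of PP. TFR cells had 7406 and 7980 in pLN d12, 11526 at d25 and 15477 and 13908 in PP. The naïve arrays of pLN lay at 11364 to 13612 and the Treg arrays of both tissues at 10852 to 12811. TFR cells of pLN d12 thus held the lowest Il6st of the 12 groups, below every other array, and GL7+ TFH cells of PP the highest mean.

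No difference in Il6st reached the minimum log2 difference of 1, so none was called, but 3 had an adjusted p under 0.05 in the fit without a slide term. These were TFR against TFH cells in pLN d12 (-0.91, SE 0.17, adjusted p 0.0096; -1.10 and -0.73 on the 2 slides), GL7+ TFH against Treg cells in PP (0.89, SE 0.17, adjusted p 0.00557; 0.96 and 0.82) and PP against pLN d12 TFR cells (0.93, SE 0.17, adjusted p 0.00515). Without slide 4 the last 2 had an adjusted p of 0.127 and 0.0566. In pLN d12 TFR against Treg cells the difference was -0.57 (adjusted p 0.0538, and 0.00459 with slide as a fixed block). In PP the same difference was 0.29 (adjusted p 0.361). The difference of these differences, 0.86, had an adjusted p of 0.198. In PP TFR cells Il6ra was thus at its lowest and Il6st in the upper part of its range, in 4th place among the 12 group means.

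Il27ra, the IL-27 binding chain (chromosome 8, 86554885 to 86554944), separated the tissues. All 8 PP arrays lay above all 12 pLN arrays. The PP values were 17182 and 12520 in Treg, 19448 and 16312 in TFR, 21367 and 16695 in GL7+ TFH and 20589 and 14886 in GL7- TFH cells. In pLN d12, Treg cells had 9745.5 and 10035, TFR cells 7641 and 6963, TFH cells 8098 and 8102 and naïve T cells 8393 and 9476.5, and the d25 arrays lay between 8191 and 10241.

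Il27ra was called higher in PP than in pLN d12 in TFH cells (2.33-fold, 1.22, SE 0.22, adjusted p 0.0124) and in TFR cells (2.44-fold, 1.29, SE 0.22, adjusted p 0.00413). The difference in Treg cells was 0.57 (SE 0.22, adjusted p 0.251). Since each slide held arrays of a single tissue, tissue and slide cannot be told apart within a slide, and a random block for slide gave adjusted p of 0.0185 and 0.00632 for the 2 calls. The TFH call was lost under 5 of 12 alternatives, namely with only the compared groups, without slide 4 (1.04, adjusted p 0.0582), without either pLN d12 TFH array and without PP GL7+ TFH replicate 1. The TFR call was lost with scaling to the 75th percentile alone and with only the compared groups, and without slide 4 it was kept (1.16, adjusted p 0.0179). Il27ra was higher on slide 4 than on slide 5 in all 4 PP groups, by 0.25 to 0.47, and on both slides it exceeded every pLN array. Within a tissue no comparison of cell types called it, with log2 differences of -0.44 to 0.36. The -0.44, of TFR against Treg cells in pLN d12, had an adjusted p of 0.00837 with slide as a fixed block, under the minimum log2 difference.

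Il21r, the IL-21 binding chain (chromosome 7, 132776725 to 132776784), differed between the 2 arrays of a group by a median of 0.66 (log2). Its group means spanned 1.22 on the same scale. It had 6667 and 10343 in naïve, 5857.5 and 8496 in Treg, 3556 and 5457 in TFR and 2987 and 5382 in TFH cells of pLN d12. The PP values were 7373 and 11856 in Treg, 4984.5 and 8354 in TFR, 4111 and 6335 in GL7+ TFH and 4255 and 7322 in GL7- TFH cells, and the d25 arrays lay between 5432 and 8756. In all 8 groups of 2 the first replicate was the lower, by 0.54 to 0.85 on the log2 scale, and these arrays are those of slides 1 and 4, which received 50 ng of RNA against 40 ng on the others. The effects of slide and of RNA amount cannot be told apart.

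On every slide TFH cells lay below naïve T cells, by -1.16, -0.94 and -0.68 on slides 1, 2 and 3, and TFR cells below Treg cells, by -0.72, -0.64 and -0.56 in pLN and by -0.56 and -0.51 in PP. Without a term for slide, no difference in Il21r was called, and that of TFH from naïve T cells was -1.05 (SE 0.45, adjusted p 0.149). With slide as a fixed block the latter had an adjusted p of 5.72e-05 and with a random block 0.000215, and both passed. The ligand Il21 was at 17879 and 16636 in pLN d12 TFH cells, at 429 and 373 in TFR cells there and at 4759 and 3489 in PP TFR cells.

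**Figure D3:**
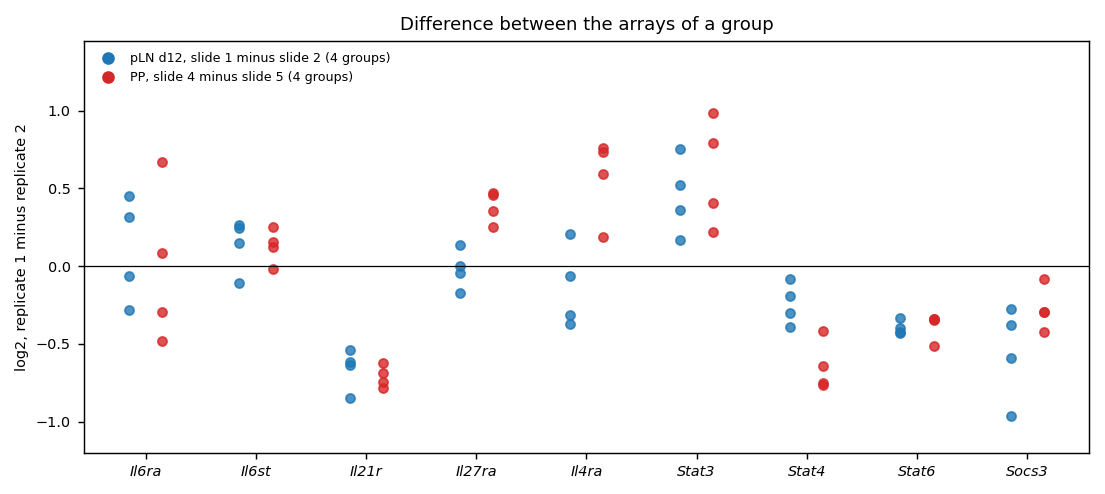
Log2 difference between replicate 1 and replicate 2 of each group of 2 arrays for the 9 genes, with pLN d12 groups (slide 1 minus slide 2) and PP groups (slide 4 minus slide 5) in separate colours and 4 points for each. Il21r, Stat4, Stat6 and Socs3 lie below 0 and Stat3 above 0 in all 8 groups.

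The same kind of order held for Stat3, higher on slides 1 and 4 in all 8 groups (by 0.17 to 0.98), and for Stat4, Stat6 and Socs3, lower in all 8 (by 0.08 to 0.77, 0.34 to 0.52 and 0.09 to 0.97). Such an order in 1 direction was seen for 40% of all tested probes. Contrasts within a slide remove only the part of such a shift that all arrays of the slide share. The shift was unequal between groups, for Socs3 -0.97 in TFH and -0.28 in naïve cells of pLN d12 and -0.09 in PP Treg cells. The errors of the model without a slide term include the shift.

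Of the STAT genes, Stat4 (chromosome 1, 52163802 to 52163861) differed most. Its levels in pLN d12 were 13215 and 13998 in TFH cells, against 5675 and 7445 in naïve, 6846 and 8427 in Treg and 5855 and 6674 in TFR cells. At d25 the TFH array had 15918 and the naïve, Treg and TFR arrays lay between 6599.7 and 7779. In PP all groups were high, with 10780 and 18324 in Treg, 17088 and 28741 in TFR, 15561 and 20741 in GL7+ TFH and 15520 and 24217 in GL7- TFH cells. TFH cells alone were high in pLN, and in PP the 4 groups overlapped across slides. Within slides PP TFR exceeded PP Treg cells by 0.66 and 0.65 (adjusted p 0.299 without and 0.00267 with slide as a fixed block), under the minimum log2 difference.

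TFR cells of PP had 3.55-fold more Stat4 than TFR cells of pLN d12 (log2 1.83, SE 0.34, adjusted p 0.00595), a call kept under all alternatives but the fit on the compared groups alone, and without slide 4 the difference was 2.20. The tissue differences of 0.89 in Treg and 0.40 in TFH cells had adjusted p of 0.247 and 0.598. In pLN d12, TFH cells exceeded naïve T cells by 1.07 (SE 0.34, adjusted p 0.0516; 1.22 and 0.91 on the 2 slides and 1.27 at d25) and TFR cells by 1.12 (adjusted p 0.0962; 1.17 and 1.07 on the 2 slides and 1.09 at d25). Neither passed in the fit of all arrays with no slide term. Both did with slide as a fixed block (adjusted p 0.000136 and 0.000384), with a random block and, with no slide term, without slide 4 (0.0172 and 0.0402), and the first also did after normexp background correction (0.0435). In PP TFR cells lay 0.30 above GL7+ TFH cells (adjusted p 1). The change of the TFR to TFH difference between tissues, 1.424 (SE 0.48), had an adjusted p of 0.425, and of 0.00462 with the fixed and 0.00253 with the random block.

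Stat3, the factor shared by IL-6, IL-21 and IL-27 signalling (chromosome 11, 100749598 to 100749657), was called in no comparison. Its values in pLN d12 ran from 17221 in a TFR array to 33408 in a TFH array, at d25 from 15470 to 17624 and in PP from 8668 to 18698. Cell types of a tissue differed by -0.40 to 0.30 and the tissues by -0.78 to -0.48 on the log2 scale. The other Stat3 probe (chromosome 11, 100759946 to 100760005), at 1105 to 2205.5, did not follow the first (r = 0.0275 over 12 group means) and was not called either.

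Stat6, the factor activated by IL-4 (chromosome 10, 127097689 to 127097748), was also called in none. It lay at 4756 and 6411 in TFH, 5099 and 6709.7 in TFR, 6763 and 9050.1 in Treg and 6996 and 8827 in naïve cells of pLN d12, at 6589 to 9557 on the d25 arrays and at 7191 to 13512 in PP. In pLN d12, Stat6 was lower in TFH than in naïve T cells on slides 1 and 2 (-0.56 and -0.46). It was also lower in TFR than in Treg cells (-0.41 and -0.43). With slide as a fixed block in limma these differences had adjusted p of 0.00105 and 0.00424, but both were under the minimum log2 difference. Where Il4ra spanned 13.1-fold between group means, Stat6 spanned 2.05-fold. PP TFR cells stood 0.83 above pLN d12 TFR cells (adjusted p 0.0688). Of its other probes, that at 127095694 to 127095753 followed the first (r = 0.934) and that at 127083983 to 127084042 less so (r = 0.337), and neither was called.

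Socs3, the feedback inhibitor of gp130 signalling (chromosome 11, 117827480 to 117827539), whose promoter held the STAT-type match shown above, was highest in Treg cells of PP and low in TFR cells. In PP it had 37093 and 39354 in Treg, 4755 and 5827.5 in TFR, 10291 and 13774 in GL7+ TFH and 9224 and 11291 in GL7- TFH cells. In pLN d12 it had 20417 and 26513 in Treg, 7497 and 11286 in TFR, 10780 and 21065 in TFH and 19632 and 23803 in naïve cells. The d25 arrays gave 18124 in Treg, 5794 in TFR, 5073 in TFH and 14065 in naïve cells. TFR arrays were below the Treg arrays of their slide on all 5 slides.

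In PP, Socs3 was 7.26-fold lower in TFR than in Treg cells (-2.86, SE 0.33, adjusted p 0.000356; -2.96 on slide 4 and -2.76 on slide 5) and 3.21-fold lower in GL7+ TFH than in Treg cells (-1.68, SE 0.33, adjusted p 0.00676; -1.85 and -1.51). In pLN d12 it was 2.53-fold lower in TFR than in Treg cells (-1.34, SE 0.33, adjusted p 0.0253; -1.45 and -1.23), and at d25 the difference was -1.65. The PP calls were lost with only the compared groups and without slide 4 (adjusted p 0.0558 and 0.213), which leaves 1 array per PP group, and the TFH call also without GL7+ TFH replicate 1. The pLN call was weaker, lost under 6 of 13 alternatives, among them without slide 4 (0.0935) and without Treg replicate 1, TFR replicate 1 or Treg replicate 2. Between tissues the TFR to Treg difference changed by -1.52 (SE 0.46, adjusted p 0.272), and the same change had an adjusted p of 0.00984 with slide as a fixed and 0.00418 as a random block. TFR cells of PP were below GL7+ TFH cells by -1.18 (adjusted p 0.0945; -1.11 and -1.24), called only with a slide block (0.00216 fixed). In TFH cells the 2 pLN d12 arrays differed by 0.97 in Socs3, and the d25 array was 1.57 below their mean (adjusted p 0.832).

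**Figure D4:**
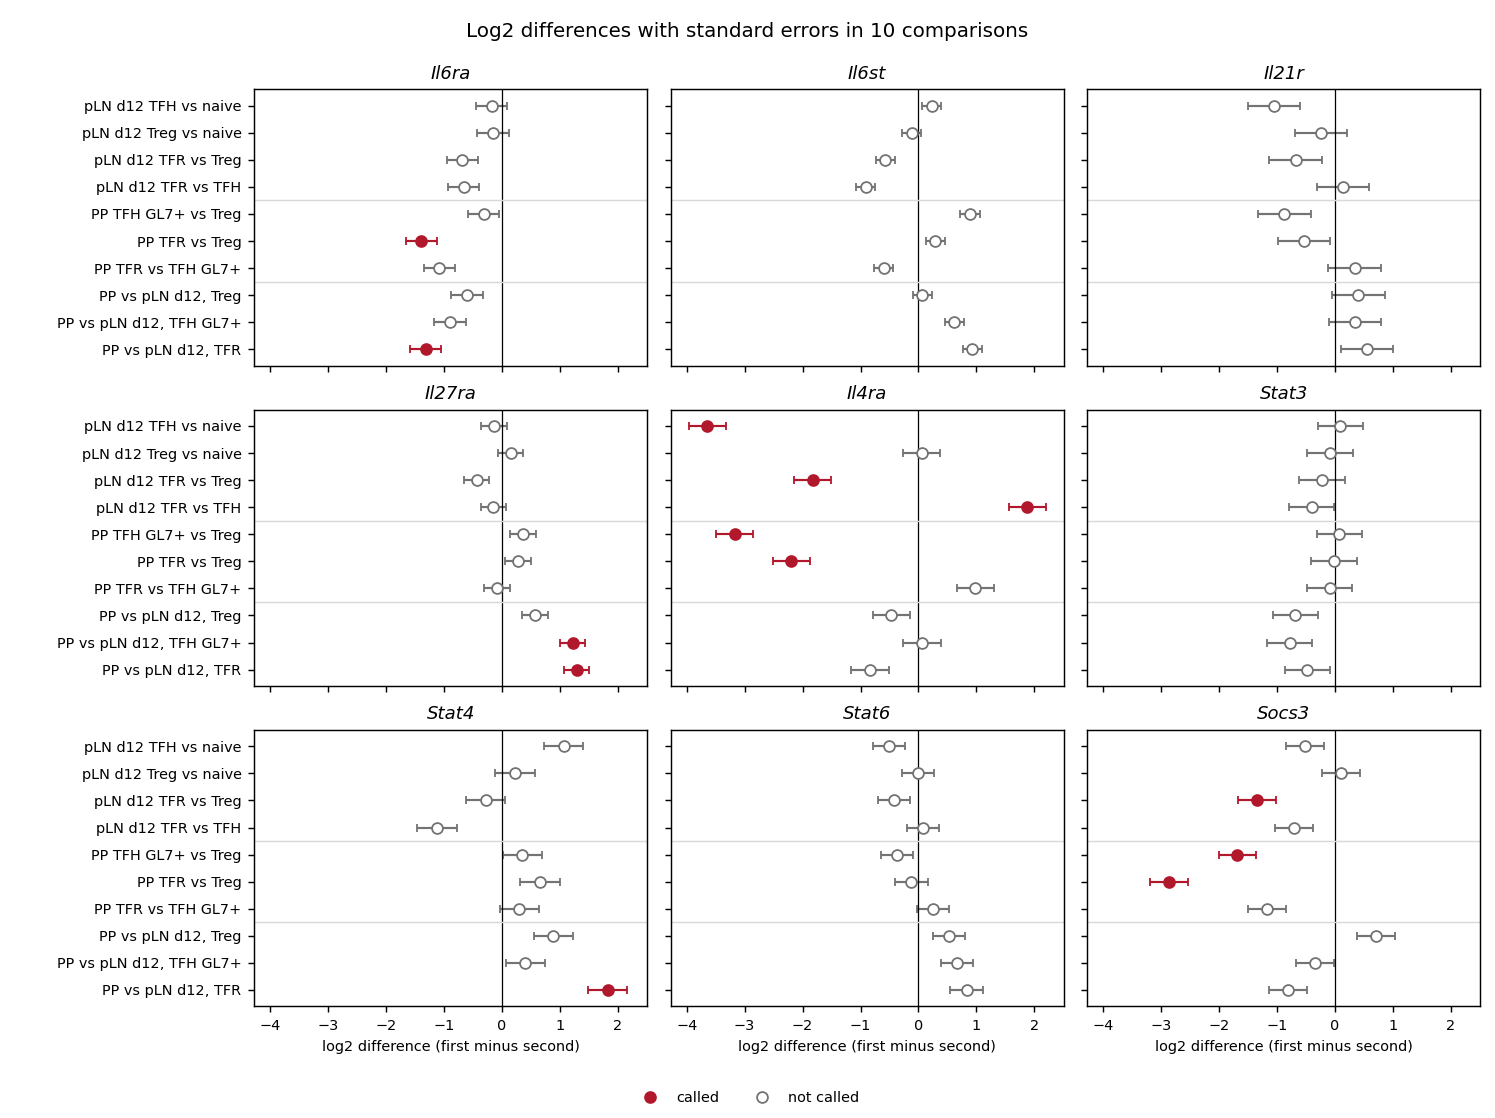
Log2 differences (points) with standard errors (bars) of the 9 genes in 10 comparisons, the first named group minus the second, with filled points for called differences. The 13 called differences comprise 5 for Il4ra, 3 for Socs3, 2 each for Il6ra and Il27ra and 1 for Stat4.

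By comparison, TFR cells of pLN d12 were called lower than Treg cells in 2 of the 9 genes (Il4ra and Socs3), where 8.35% of tested probes were called, and 3 in PP (Il6ra, Il4ra and Socs3, all lower), where 9.25% were. All 9 genes had a lower mean in TFR than in Treg cells of pLN d12, with a median of -0.57 against -0.08 over all tested probes, and 6 of 9 did in PP (median -0.12 against -0.05). In 8 of the 9 the arrays of the pLN d12 groups did not overlap, which was so for 53.6% of all tested probes. Between TFR and TFH cells, 1 gene was called in pLN d12 (Il4ra, higher), where 5.01% of probes were, and 0 in PP, where 3.44% were and 4 of the 9 genes had an unadjusted p under 0.05 by limma, as did 11.4% of probes. GL7+ TFH and Treg cells of PP differed in 2 genes (Il4ra and Socs3, both lower) against 9.87% of probes. PP and pLN d12 differed in 3 genes in TFR cells (Il27ra and Stat4 higher, Il6ra lower in PP), where 11.1% of probes were called, in 1 in TFH cells (4.54%) and in 0 in Treg cells (2.24%, with 3 genes and 14.6% of probes at an unadjusted p under 0.05).

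Several comparisons called none of the 9 genes with limma. Between Treg and naïve T cells of pLN d12 their differences ran from -0.24 to 0.22, none had an unadjusted p under 0.05, and 3.76% of probes were called. GL7+ and GL7- TFH cells of PP differed by -0.13 to 0.41 with none at an unadjusted p under 0.05 by limma or by the methods' t-test, and 0.00898% of probes were called. The tests of a change between tissues called 0 genes for TFR against Treg (0.548% of probes called, with 3 genes and 8.17% of probes at an unadjusted p under 0.05) and 0 for TFR against TFH cells (0.611%, with 1 gene and 6.49% of probes). Between d25 and d12 no gene was called in naïve (0.00898% of probes), TFH (0.0314%), Treg (0%) or TFR cells (0.00898%), where 0, 2, 0 and 1 of them and 1.16%, 2.85%, 3.5% and 3.65% of probes had an unadjusted p under 0.05. Those were Il6st and Socs3 in TFH cells (0.57 and -1.57) and Il6st in TFR cells (0.58). All d25 arrays shared slide 3, and the effects of day and of that slide cannot be told apart.

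Of 80 further genes of these pathways, 74 were tested, comprising 14 ligands, 16 receptor chains, 4 kinases, 4 other STATs, 15 inhibitors and 21 target genes. The list was chosen with earlier results of these data known, so its counts are no test of the pathways. Between TFH and naïve T cells of pLN d12, 23 were higher and 8 lower, where 14.7% of all tested probes were called. The ligands Il21 and Il4 themselves were among the higher, Il4 at 37251 and 41531 units in TFH against 114 and 763 in naïve cells (log2 7.06, SE 0.66, adjusted p 4.84e-05). Maf, a transcription factor that activates Il4 and Il21, rose by 5.54 and Lag3 by 5.05, while Il7r, the IL-7 receptor chain, fell by 4.35. Ifng was at least 29.1-fold higher, since both naïve arrays were below background.

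In TFR against Treg cells 9 of the 74 were higher and 4 lower in pLN d12 and 14 and 8 in PP. Over all tested probes 8.35% and 9.25% were called. In pLN d12 the lower ones included Osm, a gp130 ligand (-1.15, SE 0.20, adjusted p 0.00451). Il4 was higher in TFR cells in both tissues, by 2.46 in pLN d12 and 4.70 in PP, as was Ebi3, a subunit of IL-27, by 1.75 and 1.53. The inhibitor Socs2 fell by 4.02 in PP. In the PP TFR cells, with values of 20574 and 27193 for Il4 against 861.5 and 572 for Il4ra, the ligand was thus called higher and its receptor chain lower than in Treg cells, each on its own probe's scale.

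TFR cells differed from TFH cells in 6 genes upward and 9 downward in pLN d12 and in 6 and 4 in PP. Over all tested probes 5.01% and 3.44% were called. Cish and Socs2, inhibitors known as targets of STAT5, were higher in TFR cells, by 3.93 and 3.45 in pLN d12 and by 3.84 and 3.14 in PP, and Ebi3 by 2.15 and 2.51. Il21 was lower, by -5.43 in pLN d12 and -1.99 in PP. Ptpn11, a phosphatase that acts at gp130, was lower in PP by -1.60 (SE 0.23, adjusted p 0.0031). GL7+ TFH and PP Treg cells differed in 14 genes upward and 10 downward, where 9.87% of all tested probes were called. Socs2 was 143-fold and Cish 65.5-fold lower in TFH cells, and Il21 185-fold higher. In PP, Socs2 and Socs3 were thus both called lower in TFR and in GL7+ TFH than in Treg cells.

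The same list gave 12 genes upward and 1 downward between Treg and naïve T cells of pLN d12 (3.76% of all tested probes called). Between PP and pLN d12 it gave 4 and 0 in Treg, 1 and 3 in TFH and 16 and 5 in TFR cells. Over all tested probes 2.24%, 4.54% and 11.1% were called. Lag3, an inhibitory receptor, was higher in PP in Treg cells (3.07, adjusted p 0.00163) and in TFR cells (2.47, adjusted p 0.00146). Socs1 and Socs2 were lower in PP TFR cells, by -1.16 and -2.58, as was Tbx21, the T-bet gene, by -3.14. Between GL7+ and GL7- TFH cells and between days 0 genes of the list were called by limma, with 4, and 2 to 8, at an unadjusted p under 0.05. Over all tested probes 0.00898%, and 0% to 0.0314%, were called. An unadjusted p under 0.05 was seen for 1.14%, and for 1.16% to 3.65%, of them.

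The probes whose 12 group means ran closest to each gene's were found by Pearson's r over those 12 values, which share slides and replicates and carry no p-value. For Il4ra they were Itga6, Lppos and Dapk1 (r = 0.991 each). Closest to Il6ra were E330018D03Rik (0.968), Ramp1 and Styx, to Il6st Atp6v0e (0.976), Rab2b and Ypel3, to Il21r Enpp4 (0.984), Ets2 and Mindy2 and to Il27ra Shoc2 (0.983), Slc38a7 and Adipor1. Stat3 ran closest to Slpi (0.942), Zfp787 and Lce1b, Stat4 to Grtp1 (0.985), Gm8437 and COX3, Stat6 to Marveld1 (0.924), Ifit1bl2 and Acot3 and Socs3 to Crk (0.914), Ripk1 and Gclc. Within the set, the highest r were 0.801 for Il21r with Il4ra and 0.754 for Il27ra with Stat4, and the lowest -0.733 for Il4ra with Stat4 and -0.729 for Il27ra with Stat3.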

How the data were processed

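RNA of 20 sorted samples was labelled and hybridised to single-colour Agilent arrays. The deposited scanner files, made by the authors with Agilent Feature Extraction 10.7.3.1 per the submitters' processing notes, give the intensity of each feature after background subtraction, its raw pixel statistics and other columns that hold quality marks. The series matrix deposited by the authors holds linear intensity, combined over on-chip features and quantile normalised, with the 75th percentile set to 1500 and values under 20 raised to 20.

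Probe values were rebuilt from the scanner files as the geometric mean of 4 features, without features marked as outliers, outside 1.42 times the interquartile range or with a pixel coefficient of variation above 0.5, then quantile normalised and scaled, floored and logged (log2) in that order. The median absolute log2 distance to the series matrix was 0.0347 to 0.0362 per array. A probe was detected when at least 3 features were well above background, which held for 43.0% to 58.0% of probes per array, with no saturated feature. The lowest detected intensity was 20 to 144, and the local background was 24 to 78 except for pLN d12 TFR replicate 2, at 268. Precision is limited by the number of arrays. The 22264 probes detected on both arrays of any group of 2 were tested.

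Groups follow the sample labels. Replicate numbers were given in accession order and only name arrays. limma 3.58.1 (R 4.3.3; lmFit, eBayes, 1 mean per group, 8 residual degrees of freedom) tested 17 comparisons and an F test, two-sided, with Benjamini-Hochberg adjustment over all tested probes. The single d25 arrays were taken to vary as the pairs do. Samples were separate sorts of pooled mice, and the replicates of a group also differed in slide and in RNA amount. Without a slide term, p-values therefore measure the spread of sort, slide and RNA amount together. The test was checked on simulated data with independent errors and no slide effect. That check does not cover shifts shared by the arrays of a slide. For a group with no array above background, a fold is a bound ("at least") against the higher of the array's lowest detected signal and the probe's own. Symbols came from RefSeq by accession (27508 probes matched), and probe positions are those of the array annotation (mm9), with no annotation of that build used here. Sequences came from RefSeq tables on GRCm38.p6.

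Members, the list of 80 pathway genes and marker lists were chosen with earlier results of these data known. All 9 genes are named wherever they are called. Of the pathway list at most 6 called genes per direction and comparison may be named, those with the largest differences. Il2rg, and Ebi3 in TFR against Treg cells, fall outside that rule and were named after their values were seen. Not every gene that the rule allows is reported here. The 3 genes most alike in their group means are given for each. Alternatives were the series matrix, scaling without quantile normalisation, normexp background correction (offset 50), no detection filter, slide as a fixed or random block, the compared groups alone, no slide 4, no fold minimum, each replicate left out and, for GL7, the methods' t-test (unpaired, two-sided). Further independent experiments on pLN that the series design names were not analysed here.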

Additional observations from a re-analysis of the deposited data

Results flagged for a closer look

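The 4 differences below passed limma's test of a change between tissues, all in genes of the wider pathway list and none in the 9 genes. Over all tested probes 0.548% were called for TFR against Treg and 0.611% for TFR against TFH cells. Il13ra1, the chain that pairs with Il4ra, changed between tissues by 3.92 on the log2 scale in the TFR to Treg difference (adjusted p 0.038) and by 3.99 in the TFR to TFH difference (adjusted p 0.0325), with higher values in PP TFR cells. It was below background on both pLN d12 TFR arrays and both PP Treg arrays, so these sizes rest partly on values at the limit of detection. These calls were lost under 12 and 9 of 17 alternatives.

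The TFR to TFH difference of Il21 changed by 3.45 between tissues (adjusted p 0.0254), since Il21 was at 4759 and 3489 units in PP and at 429 and 373 in pLN d12 TFR cells. That call was lost under 11 of 17 alternatives. For Osm, a ligand of gp130 receptors, the change was -1.57 (adjusted p 0.041, lost under 12 of 17). TFR cells exceeded TFH cells in pLN d12 (803 and 637 against 304 and 314) and not in PP (378 and 352 against 504 and 436).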

How the results depend on the processing

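The 13 called differences of the 9 genes kept their direction under all alternatives run, and of 234 recounts of called genes 181 stayed within 1.5 times the first count. In the F test 5 genes became 3 with 75th percentile scaling, 3 with all probes tested and 1 without slide 4. For pLN d12 TFH against naïve T cells 1 became 2 with normexp and without slide 4, and 3 with slide as a fixed or random block. For pLN d12 TFR against Treg cells 2 became 1 with all probes and without slide 4, and 0 with the compared groups alone. For pLN d12 TFR against TFH cells 1 became 2 with either block, without slide 4 and with no fold minimum, and 0 with the compared groups alone. In PP, TFR against Treg cells went from 3, and TFH against Treg cells from 2, to 1 without slide 4 and to 0 with the compared groups alone, while TFR against TFH cells went from 0 to 1 with 75th percentile scaling or normexp and to 2 with either block. For PP against pLN d12, the count went from 1 to 0 in TFH cells with the compared groups alone or without slide 4, and from 3 to 0 in TFR cells with the compared groups alone. Each test of a change between tissues went from 0 to 1 with either block. Leaving out single arrays gave 2 to 5 genes in the F test, 0 to 2 for pLN d12 TFR against Treg and against TFH cells, 1 for TFH against naïve T cells, 2 to 3 for PP TFR against Treg, 1 to 2 for PP TFH against Treg, 0 to 1 for PP against pLN TFH and 2 to 3 for TFR cells. Series matrix values changed no count. The methods' t-test on GL7 called 556 probes unadjusted and 1 after adjustment, with 0 of the 9 genes. Replicate numbers only name arrays, but each slide held 1 array of every group of its tissue and day, so the fixed block for slide is the paired analysis within a tissue. The cause of these shifts was not tested. Apart from the t-test, the share of all tested probes called under each alternative is not given here. The counts of the 9 genes under the alternatives therefore stand without a background.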
